A study of Mus musculus with 6 samples.

Results

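Gata2 and Gata3 encode zinc-finger transcription factors that bind GATA sequences and work in blood formation. Open chromatin at and around them was described as ATAC-seq peaks in or within 150 kb of either gene. The genes themselves were chosen with earlier results of these data known. Windows were placed by the RefSeq gene spans of mm10, and peaks in them were taken by position alone. These windows held 50 of the 75961 regions found over the whole genome, 36 around Gata2 and 14 around Gata3. The samples were lineage-depleted bone marrow cells, a preparation enriched for stem and progenitor cells, from C57BL/6 mice. There were 3 samples of Utx knockout mice (UTX_KO), which lack the histone demethylase UTX (gene symbol Kdm6a), and 3 of wild-type mice (UTX_WT). The labels give neither age nor sex and say neither how Utx was deleted nor whether each sample is a different animal, so p-values here cover the spread between these samples, which may be technical.

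Gata2 keeps haematopoietic stem cells and early progenitors in being and directs mast cell and basophil development. During red cell maturation GATA1 takes its place at several Gata2 regulatory sites, the GATA switch. Gata3 directs T cell and type 2 innate lymphoid development and is also transcribed in stem cells. Gata2 is transcribed from a distal start used in blood and nervous tissue and from a proximal start used more widely. Its mouse enhancers are named by their distance in kilobases from the distal start, and those at -77 and +9.5 are needed for normal blood formation in mice. The human counterpart of the -77 enhancer is moved next to MECOM by an inversion of chromosome arm 3q in acute myeloid leukaemia.

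The sequence before each RefSeq start used here is shown because these are regions in the windows at which transcription of the genes begins. RefSeq (GRCm38.p6, the assembly of mm10) gives 250 bases before the distal Gata2 start on the plus strand (chr6:88193641-88193890), before the proximal Gata2 start on the plus strand (chr6:88198414-88198663) and before the Gata3 start on the minus strand (chr2:9878601-9878850), each written 5′ to 3′. Capitals mark matches on either strand to an ETS word (GGAA with an A or C before it and an A or G after it), the factor class that the series title sets beside GATA, or to the CCAAT box.
Gata2 distal: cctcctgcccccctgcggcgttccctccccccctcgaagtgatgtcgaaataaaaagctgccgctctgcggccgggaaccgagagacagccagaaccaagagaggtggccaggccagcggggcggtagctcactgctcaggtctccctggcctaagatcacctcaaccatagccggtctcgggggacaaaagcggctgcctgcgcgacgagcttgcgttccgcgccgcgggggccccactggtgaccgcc
Gata2 proximal: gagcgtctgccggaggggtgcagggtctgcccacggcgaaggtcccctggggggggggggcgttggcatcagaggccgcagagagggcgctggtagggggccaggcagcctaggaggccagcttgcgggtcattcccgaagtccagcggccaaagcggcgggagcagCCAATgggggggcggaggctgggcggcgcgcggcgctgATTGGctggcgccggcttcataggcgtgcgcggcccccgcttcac
Gata3: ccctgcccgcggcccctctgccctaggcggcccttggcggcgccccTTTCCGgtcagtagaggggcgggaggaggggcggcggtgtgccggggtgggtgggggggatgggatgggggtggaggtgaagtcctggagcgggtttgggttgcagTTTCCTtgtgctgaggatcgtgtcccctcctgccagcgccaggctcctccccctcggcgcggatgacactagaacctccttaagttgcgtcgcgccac

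The GATA word (GATA with an A or T before it and an A or G after it), searched on both strands, was in 0 of these 3 sequences, against 26.5% of the 32851 RefSeq promoters read in the same way. Gata3 had 2 ETS matches, 204 and 98 bases before its start. At least 1 such match was in 57.2% of all promoters. The proximal Gata2 sequence had 2 CCAAT boxes, 83 and 45 bases before the start, a word found in 33.8% of promoters. The E-box words CAGCTG and CATCTG (25.5% of promoters for the pair) and the RUNX word TGTGGT (14.0%) were in 0 of the 3. No matches of different motifs overlapped. GC content was 67.2%, 74.0% and 70.0%, against a median of 52.4% over all promoters. These are matches of letters and say nothing of whether a factor was bound.

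Each peak list gives chromosome, start and end only. The measurements were therefore whether a sample had a peak and how wide that peak was, and sequencing depth is unknown. Knockout lists were shorter, with 44576 to 50249 peaks against 57405 to 57917 in wild type, a ratio of the means of 0.810, so values at the 2 genes are given beside that of the whole lists. Kdm6a itself had 6, 6 and 5 peaks in the knockout samples and 4, 5 and 5 in the wild-type samples, which does not check the genotype, since the deleted part is not given. The labelled cell type was checked by peaks within 1 kb of a marker's start. Of 8 stem and progenitor markers with a RefSeq start, 7 had such a peak in every knockout sample and 7 or 8 in the wild-type samples. The 3 Cd3 genes of T cells had none in any sample. Peaks stood at 1 of 4 megakaryocyte markers in each knockout sample and 4 of 4 in each wild-type sample, at 3 of 6 erythroid markers in each knockout sample and 4 of 6 in each wild-type sample, and at 1 to 4 of 6 mast cell and basophil markers in knockout against 4 in wild type. They stood at 3 of 3 B lymphoid markers in knockout against 1 to 2 in wild type, at 3 to 4 of 5 granulocyte and monocyte markers in knockout against 4 in wild type, and at 1 to 2 of 8 T and NK markers in either genotype. Fewer cells of a type and less open chromatin per cell cannot be told apart in such bulk samples, and the part of these marker differences in the results was not tested.

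Fewer peaks stood around Gata2 in knockout cells. Knockout samples 1, 2 and 3 had 19, 23 and 18 peaks in or within 150 kb of Gata2, and wild-type samples 1, 2 and 3 had 32, 34 and 34. Every knockout sample was below every wild-type sample. The means were 20.0 ± 2.65 in knockout and 33.3 ± 1.15 in wild type (SD, n = 3 each), a ratio of 0.600 (two-sided exact permutation p = 0.1, the smallest that 3 samples against 3 can give). Such a separation was common, since 52.0% of the windows of 19287 genes with a peak had fewer peaks in every knockout than in every wild-type sample. The median ratio over genes was 0.793, and 14.2% of the 19164 genes with a wild-type peak had a ratio at or below that of Gata2. As a share of a sample's own peaks the Gata2 window held 0.0427% ± 0.00277 in knockout and 0.0578% ± 0.0018 in wild type (n = 3 each, exact permutation p = 0.1). With every list limited to its widest 44576 peaks, Gata2 had 19, 18 and 18 peaks in knockout against 25, 25 and 25 in wild type. How many gene windows were apart on these last 2 scales is not given here, so how common this was is unknown.

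Around Gata3 the peak numbers overlapped. There were 10, 10 and 9 peaks in knockout samples 1, 2 and 3, and 13, 10 and 12 in wild-type samples 1, 2 and 3. The means were 9.67 ± 0.577 in knockout and 11.7 ± 1.53 in wild type (SD, n = 3 each), a ratio of 0.829 (exact permutation p = 0.3) that lay close to the 0.810 of the whole lists. As a share of all peaks the 2 genotypes had 0.0207% ± 0.00119 in knockout and 0.0202% ± 0.00274 in wild type (exact permutation p = 0.9), so the direction turned with the scale.

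**Figure D1:**
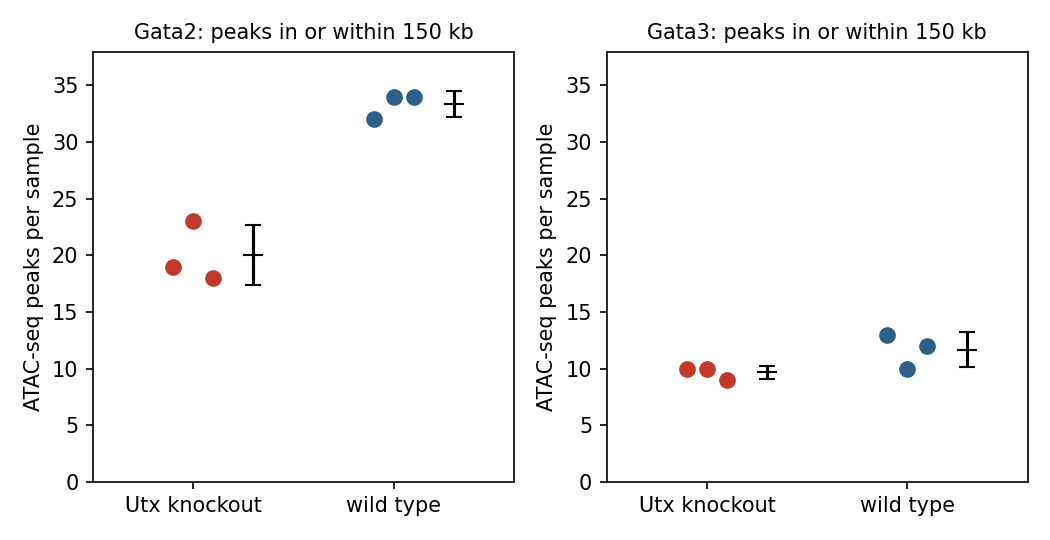
Number of ATAC-seq peaks per sample (y axis) in or within 150 kb of Gata2 (left) and Gata3 (right), in Utx knockout and wild-type samples. Points are samples and bars show the mean ± SD (n = 3); the groups are apart at Gata2 (18 to 23 against 32 to 34) and overlap at Gata3 (9 to 10 against 10 to 13).

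The bases under peaks were apart at both genes. The Gata2 window had 9910, 11454 and 8325 bases under peaks in the knockout samples, against 18848, 18210 and 16787 in the wild-type samples, a ratio of the means of 0.551. The Gata3 window had 4302, 4203 and 3896 in knockout, against 5203, 4584 and 5117 in wild type, a ratio of 0.832. Every knockout sample was below every wild-type sample in each window (exact permutation p = 0.1 each), as in 61.6% of all gene windows, whose median ratio was 0.806.

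Peak numbers were apart on either side of Gata2 and overlapped in the gene itself, which held few peaks. Whole windows were lower in every knockout sample at 52.0% of genes with a peak, and no such share is given here for parts. Before the gene there were 12, 16 and 13 peaks in knockout samples against 20, 21 and 19 in wild-type samples. Beyond its end there were 4, 4 and 3 in knockout against 9, 9 and 10 in wild type. In the gene there were 3, 3 and 2 in knockout against 3, 4 and 5 in wild type.

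Peaks that shared at least 1 bp were merged over the 6 samples into regions. A region counted as lost with peaks in 3 of 3 wild-type and 0 of 3 knockout samples, and as gained with the reverse. Around Gata2, 7 of 36 regions (19.4%) were lost, where the share over all regions of the genome was 10.6%, and 0 were gained, where that share was 4.69%. Of the 29 Gata2 regions with a peak in all 3 wild-type samples, the 7 lost ones made up 24.1%, against 17.3% genome-wide. A window with at least 7 lost regions was found at 5.22% of genes with a peak, and the median gene had 2. Around Gata3, 0 of 14 regions were lost and 0 were gained.

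All 7 lost regions lay far from the Gata2 promoter. Relative to the distal start they were centred at -140.0, -117.6 and -71.9 kb, and at 61.7, 72.4, 112.7 and 147.5 kb. Within 50 kb of the gene span only the region at 61.7 kb counted as lost. It spanned chr6:88255297-88255807, with peaks of 299, 365 and 511 bp in wild-type samples 1, 2 and 3 and no peak in any knockout sample, and it was the widest of the 7. The region at -71.9 kb (chr6:88121837-88122164) had peaks of 282, 290 and 199 bp in the wild-type samples and none in the knockout samples. It lies between the -77 enhancer position and the gene. The other 5 had wild-type peaks of 206 to 479 bp.

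The lost regions had narrow peaks. The median wild-type peak width was 277 bp over the 7 lost regions, by their means over samples, and 975 bp over the 15 regions that had a peak in all 6 samples. The same medians were 360 and 584 bp over the genome. With every list limited to its widest 44576 peaks, 1 region of 30 around Gata2 was lost, that at 61.7 kb, and the share over all regions was 7.25%. The count of 7 therefore changed under this limit, while the lower peak number did not turn. The limit drops the narrowest peaks, so the length of the lists and the width of the peaks cannot be told apart in it.

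The downstream neighbour Eefsec encodes the elongation factor for selenocysteine. Its span runs beyond the window to 252.7 kb, so only a part of it was read here. That part held 4 of the regions, centred at 72.4, 98.8, 112.7 and 147.5 kb. Of all regions genome-wide, 28.5% had no knockout peak, and no knockout sample had a peak in any of these 4. Wild-type sample 1 had peaks in 3 of them and wild-type samples 2 and 3 in all 4. Eefsec was singled out after its values were seen. On the other side, the region over the start of Rpn1 (-109.2 kb), a subunit of the oligosaccharyltransferase of the endoplasmic reticulum, had a peak in all 6 samples, of 521, 912 and 494 bp in knockout against 1132, 1072 and 818 bp in wild type. The region over the start of Rab7 (-148.8 kb), a small GTPase of late endosomes, had 884, 862 and 752 bp in knockout against 966, 1005 and 954 bp in wild type. There the groups were apart, as in 26.7% of all regions with a peak in all 6 samples, and the width was not called (limma, adjusted p = 0.122). Dnajb8, a co-chaperone gene, had no region within 1 kb.

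**Figure D2:**
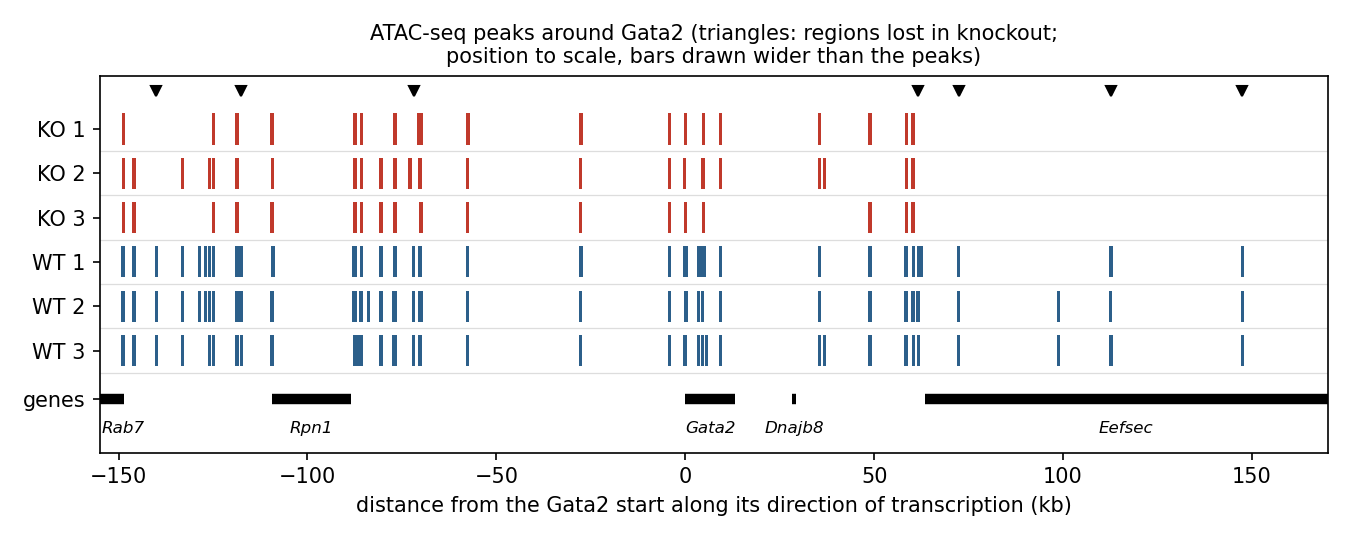
Peaks of each sample (rows, knockout in red above wild type in blue) by distance in kb from the distal Gata2 start (x axis), with the spans of protein-coding genes in black. Triangles mark the 7 lost regions, and bars are drawn wider than the peaks. From the region at 60.3 kb to the end of the window no further knockout peak was found.

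Of the remaining 29 Gata2 regions, 15 had a peak in all 6 samples and 14 in some. Among the 14, 12 were found in fewer knockout than wild-type samples, which is 33.3% of the 36 regions against 29.4% genome-wide. At -72.9 kb knockout sample 2 alone had a peak, and at 36.9 kb there was 1 sample of each genotype. In all, 12 of the 36 regions (33.3%) had no knockout peak, against 28.5% genome-wide, and 1 had no wild-type peak, against 12.0% genome-wide.

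The described Gata2 enhancer positions were then looked up by distance alone. The -77 position fell inside the region at chr6:88116354-88117536. Its peaks were 720, 941 and 916 bp wide in knockout samples 1, 2 and 3, and 1085, 1148 and 1152 bp in wild-type samples 1, 2 and 3. It was open in every sample and narrower in every knockout sample than in any wild-type sample. The same held for 26.7% of all regions with a peak in all 6 samples. The log2 difference of width was -0.40 ± 0.11 (SE), a ratio of 0.756, which missed the threshold of 0.05 (limma, Benjamini-Hochberg adjusted p = 0.0554).

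The +9.5 position, an enhancer inside the gene, fell in the region at chr6:88202997-88203532. Knockout samples 1 and 2 had peaks of 390 and 349 bp there and knockout sample 3 had none. Wild-type samples had 535, 483 and 456 bp. The region was therefore not lost by the rule. Among regions with a peak in at least 2 samples of each genotype, with knockout sample 3 dropped, the log2 difference of width was -0.41 ± 0.14 (SE; limma, adjusted p = 0.105).

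The -3.9 position fell in the region at chr6:88189444-88190051. Knockout peaks were 396, 390 and 376 bp and wild-type peaks were 558, 542 and 542 bp wide. Both groups were tight and well apart, with a log2 difference of -0.50 ± 0.095 (SE; limma, adjusted p = 0.0150). The adjusted p was 0.0538 without wild-type sample 1 and 0.0523 without wild-type sample 2. The -2.8 and -1.8 positions were in no region, and the nearest ones, at -4.1 and 0.1 kb, ended 1040 and 1275 bp away.

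Of the 15 Gata2 regions open in all 6 samples, the one at the proximal start had the largest log2 difference of width with all samples. It spans chr6:88197080-88199649. The summed peak width was 494, 664 and 275 bp in the knockout samples, and 2417, 1383 and 1407 bp in the wild-type samples. Wild-type sample 1 had 1 continuous peak, wild-type sample 2 had 2 peaks and wild-type sample 3 had 3, while each knockout sample had 1 peak, over the start itself. The log2 difference was -1.90 ± 0.35 (SE), a ratio of 0.268 (limma, adjusted p = 0.0126). Without wild-type sample 1, the library with the continuous peak, the peaks were merged anew and this region fell apart. The part over the start, with 899 and 794 bp in wild-type samples 2 and 3, had -0.91 (limma, adjusted p = 0.163). That value leaves out their other peaks here, so it is not one of the whole region. The region at -85.8 kb had -0.93 without wild-type sample 1 (limma, adjusted p = 0.102). Of the 250 proximal bases printed above, peaks covered 250, 250 and 148 in the knockout samples and all 250 in every wild-type sample. At the distal start (region chr6:88193366-88194536) the width was 1019, 594 and 658 bp in knockout and 1108, 1102 and 883 bp in wild type. These groups overlapped (log2 difference -0.48 ± 0.21 SE; limma, adjusted p = 0.155), and the 250 bases before the distal start were under a peak in all 6 samples.

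**Figure D3:**
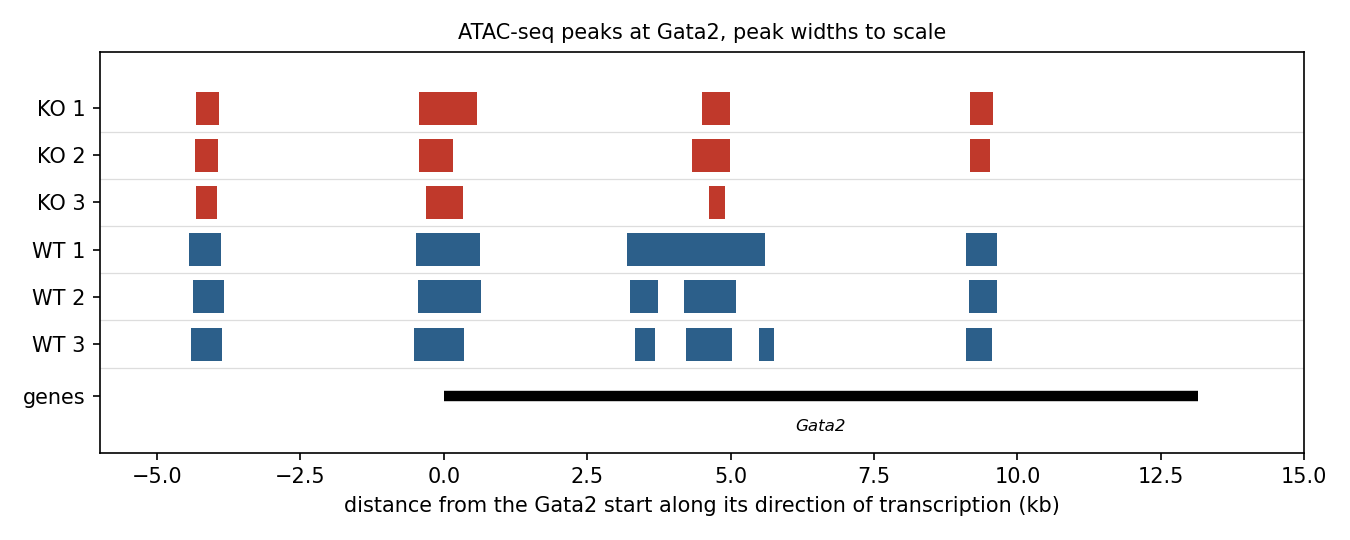
Peaks of each sample (rows, knockout in red above wild type in blue) across Gata2, with widths to scale and distance in kb from the distal start on the x axis. The summed width of the peaks in the region at 4.5 kb, over the proximal start, is 275 to 664 bp in knockout and 1383 to 2417 bp in wild type, and knockout sample 3 has none at 9.4 kb.

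Widths were tested by limma in a fit over all 31159 regions with a peak in all 6 samples, with adjustment over all of them. In that fit 8.84% of regions were called narrower and 6.34% wider in knockout, and the median log2 difference was -0.10, with 65.9% of regions below 0. Around Gata2, 4 of 15 regions were called narrower and 0 wider. All 15 had a negative log2 difference, with a median of -0.50, and in 9 of them every knockout width was below every wild-type width, where 26.7% of all regions were so. At an unadjusted p under 0.05 limma gave 11 of 15, all of them narrower, where 21.8% of all regions were narrower and 11.1% wider at that p.

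Besides the regions at -4.1 and 4.5 kb, the narrower calls were at -70.1 and 60.3 kb. The -70.1 kb region (chr6:88123177-88124361) had 755, 917 and 619 bp in knockout and 1123, 1182 and 1097 bp in wild type (log2 difference -0.59 ± 0.14 SE; limma, adjusted p = 0.0327). That at 60.3 kb (chr6:88253975-88254506) had 335, 277 and 291 bp in knockout and 495, 427 and 438 bp in wild type (-0.59 ± 0.13 SE; limma, adjusted p = 0.0218). In both the groups were apart. Neither call stood firm when samples were left out: the limma adjusted p at -70.1 kb was 0.0574 to 0.0953 without knockout sample 1 or 3 or any wild-type sample, and that at 60.3 kb was 0.0525 to 0.0713 without knockout sample 2 or 3 or any wild-type sample.

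The widest Gata2 regions in wild type after the proximal start were at -87.5 kb, just past the end of Rpn1, and at -70.1 and -76.9 kb. The -87.5 kb region had 1138, 1152 and 1157 bp in knockout against 1319, 1382 and 1297 bp in wild type, groups that were apart (log2 difference -0.21 ± 0.063 SE; limma, adjusted p = 0.0617). The smallest differences were at -124.9 and -118.6 kb, at -0.08 each, where the groups overlapped.

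**Figure D4:**
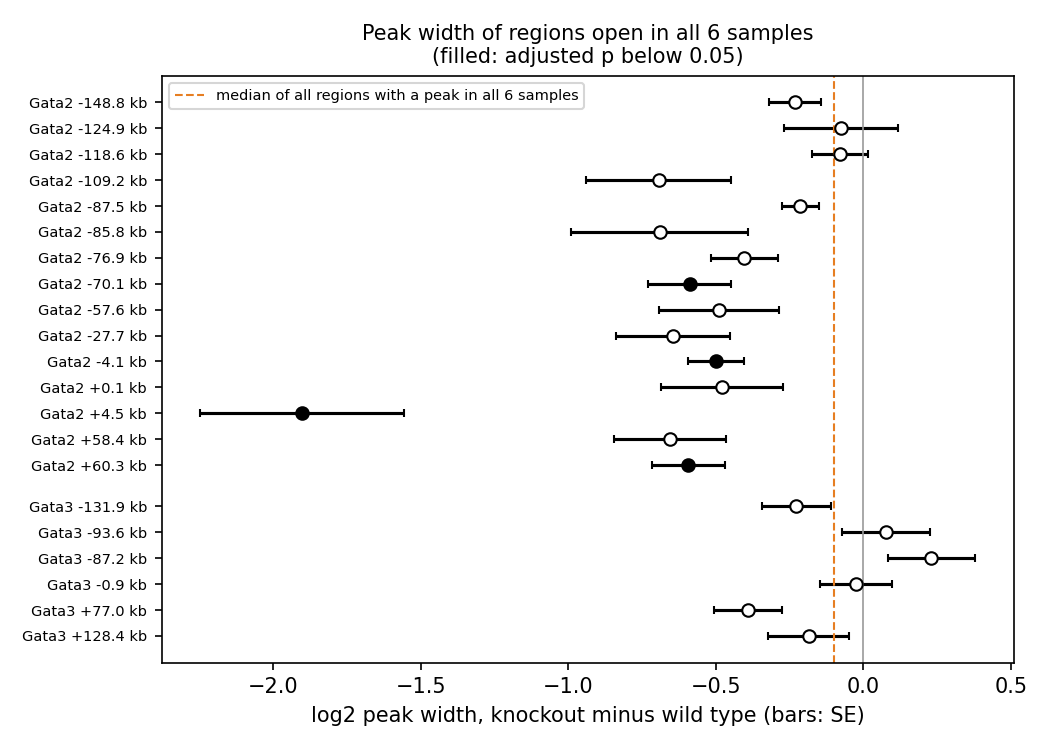
Log2 difference of peak width, knockout minus wild type (x axis), for each region with a peak in all 6 samples (rows, by distance from the start of Gata2 or Gata3), with bars for the SE and filled points for an adjusted p below 0.05. All 15 Gata2 regions lie below 0, as do 4 of 6 Gata3 regions, and the dashed line marks the median of all regions at -0.10.

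At Gata3 the regions at the start used here held their peaks in knockout cells. The regions from 5.7 to 10.9 kb inside the gene, and that at -10.9 kb, were found in fewer knockout than wild-type samples. The region just before the start (chr2:9879011-9880014) was open in all 6 samples, with 812, 797 and 949 bp in knockout and 754, 873 and 982 bp in wild type. The groups overlapped (log2 difference -0.02 ± 0.12 SE; limma, adjusted p = 0.906). At the start itself (chr2:9878250-9878682) all 3 knockout samples had peaks, of 199, 269 and 268 bp, whereas wild-type samples 1 and 3 had 273 and 424 bp and wild-type sample 2 had none. Of the 250 bases printed above, peaks covered 67, 78 and 70 in the knockout samples and 82, 0 and 73 in the wild-type samples, the part nearest the start.

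Inside Gata3 at 1.4 kb (chr2:9876846-9877600) the order was the opposite of that at Gata2. Peaks of 755, 584 and 446 bp stood there in knockout samples, against 265 bp, none and 272 bp in wild-type samples. Every knockout width was above every wild-type width, with wild-type sample 2 counted as having none. Among regions with a peak in all 6 samples, which leave this one out, 12.8% were wider in every knockout sample. In the fit of regions with a peak in at least 2 samples of each genotype, with wild-type sample 2 dropped, the log2 difference was 1.12 ± 0.23 (SE; limma, adjusted p = 0.0246), where 6.23% of 37470 regions were called wider. With every list limited to its widest 44576 peaks this region counted as gained, as did 7.35% of all regions under that limit. The limit works by width and dropped the wild-type peaks of 265 and 272 bp, so the call does not mean that they were absent.

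Further inside the gene, at 7.1 kb (chr2:9871059-9871848), knockout samples 1 and 2 had 411 and 307 bp and knockout sample 3 had no peak, against 618, 680 and 530 bp in wild type. In the same fit, with knockout sample 3 dropped, the log2 difference was -0.77 ± 0.18 (SE; limma, adjusted p = 0.0384), where 8.72% of regions were called narrower. At 5.7 kb knockout samples had 279 bp, 304 bp and no peak, against 303, 360 and 469 bp in wild type (adjusted p = 0.295 by limma, with knockout sample 3 dropped). The region at 10.9 kb had peaks in wild-type samples 1 and 2 alone.

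Before the gene, at -10.9 kb (chr2:9889211-9889848), knockout sample 3 alone had a peak, of 365 bp, against 439, 395 and 290 bp in wild type. The RefSeq span of Gata3 reaches to -9.353 kb from the start used here, and this region lies 1258 bp from that end of the span. Without knockout sample 3 this region counted as lost. Taf3, which encodes a subunit of TFIID, neighbours Gata3 and held the 5 regions from -79.6 to -131.9 kb. Of these, the 3 at -87.2, -93.6 and -131.9 kb were open in all 6 samples. At -87.2 kb the peaks were 576, 532 and 424 bp in knockout and 473, 439 and 387 bp in wild type, which overlapped (log2 difference 0.23 ± 0.15 SE; limma, adjusted p = 0.317).

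Beyond Gata3 the regions at 77.0 and 128.4 kb were open in every sample. That at 77.0 kb (chr2:9801415-9801880) had 312, 342 and 310 bp in knockout and 445, 438 and 382 bp in wild type, groups that were apart (-0.39 ± 0.12 SE; limma, adjusted p = 0.0634). Of the 6 Gata3 regions with a peak in all samples, 0 were called in either direction by limma and 1 had an unadjusted p under 0.05. Their median log2 difference was -0.11. Of the 14 Gata3 regions, 6 (42.9%) were found in fewer knockout than wild-type samples and 2 in more. Short of lost, 29.4% of all regions were found in fewer knockout samples, and a further 10.6% were lost, against 0 lost at Gata3.

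**Figure D5:**
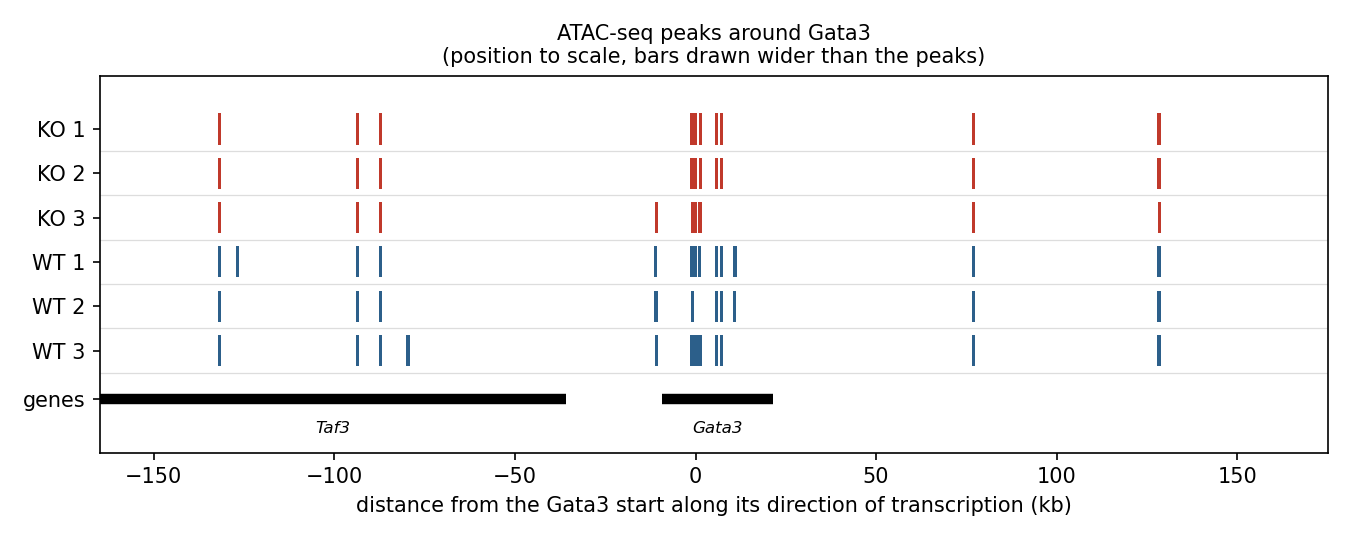
Peaks of each sample (rows, knockout in red above wild type in blue) by distance in kb from the Gata3 start along its direction of transcription (x axis), with gene spans in black and bars drawn wider than the peaks. The 3 knockout samples have peaks at 0.1 and 1.4 kb, where wild-type sample 2 has none, and knockout samples 1 and 2 have none at -10.9 kb.

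The other GATA factor genes were read in the same 150 kb windows. Gata1, the main factor of red cell and megakaryocyte maturation, had 11, 11 and 10 peaks in knockout against 16, 19 and 17 in wild type, and 6 of its 19 regions (31.6%) were lost, beside 10.6% of all regions. Gata4, Gata5 and Gata6, factors of heart and endoderm, had 14.0, 20.3 and 5 peaks on average in knockout against 15.7, 22.7 and 7.33 in wild type, and their groups overlapped. Their lost regions were 3 of 22 (13.6%) at Gata4, 1 of 26 (3.85%) at Gata5 and 2 of 10 (20%) at Gata6. Of the 4 genes, 1 had fewer peaks in every knockout sample and 0 had more, beside 52.0% and 3.55% of all gene windows.

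Partner factors that share stem cell enhancers with GATA2 had 4 of 6 windows with fewer peaks in every knockout sample (Tal1, Lyl1, Lmo2 and Runx1) and 2 that overlapped (Fli1 and Erg), where 52.0% of all gene windows were lower. Lmo2, which links GATA factors to TAL1, had 21, 20 and 15 peaks in knockout against 39, 37 and 36 in wild type. Erg, an ETS factor of stem cells, had 33, 38 and 35 against 36, 37 and 40. Among the cofactor genes, 3 of 4 were lower, beside the same 52.0%, Zfpm1 (FOG1) with 18, 22 and 19 peaks in knockout against 43, 46 and 44 in wild type, together with Ldb1 and Cbfa2t3, and Ldb2 had no peak in any sample. The median ratio was 0.771 for the partners and 0.564 for the 3 cofactors with peaks, against 0.793 over all genes.

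Genes that act with Gata2 in mast cells and basophils had 5 of 7 windows lower in every knockout sample and 0 higher, beside 52.0% and 3.55% of all gene windows, with a median ratio of 0.692. Kit, the stem cell factor receptor, had 6, 6 and 6 peaks in knockout against 14, 12 and 15 in wild type. Fcer1a, a chain of the IgE receptor, had 6, 5 and 2 against 10, 10 and 11. Genes that act with Gata3 in the T lineage were divided, with 4 of 8 lower, a share near that of all gene windows (52.0%), and 2 higher (3.55% of all), and a median ratio of 0.750. The higher ones were Il7r, the interleukin 7 receptor chain of lymphoid progenitors, with 20, 19 and 18 peaks in knockout against 9, 11 and 12 in wild type, and Tox, a lymphoid nuclear factor, with 10, 6 and 6 against 5, 4 and 5. Tcf7, Notch1, Zbtb7b and Runx3 were lower, and Il7r gained 7 of 24 regions, where 4.69% of all regions were gained. The 5 neighbours, whose windows overlap those of Gata2 or Gata3, were all lower in every knockout sample, beside 52.0% of all gene windows. Eefsec had 18, 20 and 16 peaks in knockout against 28, 33 and 32 in wild type. Overlapping windows share peaks, so these are not separate observations.

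The genes most like each member were those with the smallest root mean square difference over the 6 samples in bases under peaks within 150 kb, each sample taken relative to the gene's mean. For Gata2 they were Il1a (0.0198), Nxpe2 (0.0213) and Gm35060 (0.0293) among 10992 eligible genes. Il1a, which encodes interleukin 1 alpha, had 6392, 7760 and 5788 bases in knockout against 12923, 12064 and 11287 in wild type. For Gata3 they were Tacc3 (0.00907), 2700049A03Rik (0.0142) and Myt1 (0.0151) among 8196.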

How the data were processed

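ATAC-seq was made from lineage-depleted bone marrow of 3 Utx knockout and 3 wild-type samples, grouped by their titles. For each sample the authors deposited peak coordinates, with no score or count. Per the submitters' processing notes, MACS2 was used and the build was mm10, without a version. How reads were aligned, filtered and shifted is not given in the sources used here, and depth is unknown.

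Peaks of the 6 samples that overlapped by 1 bp or more were joined into regions. Gene spans and starts of 21896 protein-coding genes came from RefSeq tables of GRCm38.p6, which hold no exons, so positions are given only as inside or outside a gene. Peak numbers and bases were compared by two-sided exact permutation over 10 splits. Width was the log2 of a sample's summed peak width in a region, tested with limma 3.58.1 (R 4.3.3, trended variance, no replicate block) over all regions with a peak in all 6 samples, with Benjamini-Hochberg adjustment at 0.05. The calls and the width test were tested on simulated data. Python 3.11.15 was used otherwise.

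The members, gene lists, enhancer distances and named regions were chosen with earlier results of these data known, and the motif words after the sequences were at hand. The named genes were the 2 members, their neighbours within 150 kb, the listed GATA, partner, cofactor, T lineage and mast cell genes, and the 3 most alike genes over 300 kb away. The named regions were those at either gene, at the described enhancer distances (within 1.5 kb), all called ones and the widest 3; others are named as examples. Alternatives were leaving out each sample, 50 kb, the widest 50% of peaks, equal lists, 50% coverage, 2 of 3 samples, shares of peaks, centred widths, incomplete regions and a replicate block. Where samples or peaks were left out, regions were merged anew and could be narrower than those printed.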

Additional observations from a re-analysis of the deposited data

How the results depend on the processing

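The lower peak number at Gata2 kept its direction in every alternative run, with differences of -14.8 to -12.3 peaks when 1 sample was left out, against -13.3 with all samples. It was smaller, at -6 with the widest 50% of peaks, -6.67 with equal lists and -3.33 within 50 kb, settings that leave fewer peaks. Lost regions at Gata2 numbered 7 to 9 without 1 sample, 1 within 50 kb, 3 with the widest 50% of peaks and 1 with equal lists. Narrower regions at Gata2 numbered 0 to 6 without 1 sample (0 without wild-type sample 1, 1 without wild-type sample 2, 2 without wild-type sample 3 or knockout sample 3) and 0 with the widest 50% of peaks, against 4; the cause was not tested.

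For Gata3, lost regions numbered 0 to 1 without 1 sample (1 without knockout sample 3 or wild-type sample 3), 1 with the widest 50% and 1 when 2 of 3 samples sufficed. Gained regions numbered 1 with the widest 50%, with equal lists and with 50% coverage. Wider regions numbered 0 to 1 without 1 sample (1 without wild-type sample 2), and 1 wider and 1 narrower region were called where 2 samples of each genotype sufficed. The difference in peaks turned to 0.333 with equal lists and to 0.000483 percentage points as a share.

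Log2 width differences that turned were those of the Gata3 region at -0.9 kb (0.0084, 0.022 and 0.067 without knockout sample 1, knockout sample 2 or wild-type sample 3, in a range of -0.12 to 0.067 over left-out samples, and 0.033 with centred widths), Gata2 at -124.9 kb (0.072 and 0.020 without knockout sample 3 or wild-type sample 1, range -0.24 to 0.072) and Gata3 at -93.6 kb (-0.063 without knockout sample 3, range -0.063 to 0.16), none of them called.

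Same-numbered samples did not deviate together (correlations of -0.030 to 0.025 over regions, and 0 of 3 knockout samples most like their own number), so the numbers were not taken as pairs. With the replicate block the Gata2 difference was -13.3 peaks (exact sign-flip permutation p = 0.25, the smallest possible), the Gata3 difference was -2.00 (p = 0.5, exact permutation), and limma called 3 narrower Gata2 regions, without that at -4.1 kb (adjusted p = 0.0515). Depth, unknown here, limits all counts of absent peaks, which may lie just under the caller's threshold.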
